A study of Mus musculus with 11 samples.

Results

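The miR-467 and miR-669 families are 2 groups of mouse miRNA genes, most of which lie together inside an intron of Sfmbt2. Members were taken by name, as every entry of the deposited small RNA table whose name begins with Mir467 or Mir669 and has no further digit directly after it. The rule gave 47 of 3859 small RNA genes, 17 of the miR-467 family and 30 of the miR-669 family. It used no measured value.

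Sfmbt2 encodes a Polycomb-related protein, and in the mouse it is an imprinted gene expressed from the paternal copy, best known from trophoblast and placenta. Its miRNA cluster is an array of many near-copies that is known from rodents. miRNAs within an intron are commonly cut from the transcript of their host gene, first as a hairpin precursor and then as the mature miRNA, whose seed (bases 2 to 8) pairs with target messages. The Sfmbt2 transcript itself was not measured in these libraries.

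Small RNA was sequenced in 11 libraries, 1 for each stage on the way from mouse embryonic fibroblasts (MEF) to pluripotent cells. They covered MEF without doxycycline, each of days 1 to 8 with it, an established line of induced pluripotent stem cells (iPSC) and a line of embryonic stem cells (ESC). All are labelled Mbd3f/-, so the MEF carried that genotype too: one allele of Mbd3 was floxed and the other deleted. Mbd3 is part of the NuRD chromatin complex. The MEF were secondary fibroblasts with a doxycycline-inducible cassette for Oct4, Klf4, Sox2 and Myc (OKSM). The ESC library is labelled Mbd3f/- as well, but its column carries the name V6.5, which the series text joins to wild-type ESC, so its genotype is unclear. Per the labels, cells of days 3 to 8 and of both pluripotent lines grew on irradiated human foreskin fibroblasts. The medium was changed within the course to one that held inhibitors of the kinases MEK and GSK3 beside LIF, on a day that the sources give differently. Feeders, medium and the later days therefore cannot be told apart. Wild-type and Gatad2a-deficient cells were not analysed here.

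Values are FPKM, fragments scaled to transcript length and library size, as the authors deposited them. The value of 1 read implied 11500000 mapped reads in MEF and up to 21800000 on day 7. With 1 library per stage there is no replicate of any stage. A p-value below measures the scatter of the 9 libraries from MEF to day 8 round a trend, which may be technical, and not the spread between cultures. The pluripotency miRNAs Mir290 to Mir295, Mir302a to Mir302d and Mir367 summed to 46901740 FPKM on day 8, 21869147 in iPSC and 17739271 in ESC, against 21449 in MEF. All 11 were higher on day 8 than in MEF, Mir302b, Mir302c, Mir302d and Mir367 were at 0 in MEF, and Mir295 was listed at 0 in both pluripotent lines. The 8 fibroblast miRNAs summed to 11264737 FPKM on day 8, 5998227 in iPSC and 26299230 in ESC, against 25207797 in MEF. Of these 8, 2 were higher on day 8 than in MEF, Mir143 and Mir22. Mir143 was at 7360140 FPKM on day 8 and made up most of the sum there, but none of it in MEF. Mir22 was in effect at 0, with 1.39e-07 FPKM on day 8 against 1.11e-07 in MEF. In ESC 1 was higher than in MEF, Mir143, which was listed at 0 in MEF and at 17316200 FPKM in ESC. Without Mir143 the fibroblast sum was 8983030 FPKM in ESC and 2071027 in iPSC, against 25207797 in MEF. Bulk libraries cannot tell fewer cells of a type from less RNA per cell.

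Of the 47 members, 43 lay within 1 intron of Sfmbt2 on the plus strand of chromosome 2, 14 of them miR-467 and 29 miR-669. Coordinates are from GENCODE vM21 on GRCm38, the assembly that the submitters' notes call mm10. The gene runs from 10370510 to 10595253, the intron from 10461473 to 10523944 (62472 bases), and the members from 10467229 to 10518279, a stretch of 51051 bases. No member overlapped an Sfmbt2 exon. The hairpins were 73 to 127 nt long, and the 43 held 27 distinct sequences. The 4 other members lay elsewhere and are named miR-467 or miR-669 all the same. Mir467f lay on chromosome 11 (69635400 to 69635519, minus strand), Mir467g on chromosome 5 (34732853 to 34732972, minus strand), Mir467h on chromosome 9 (115381819 to 115381939, plus strand) and Mir669n on chromosome 3 (115979902 to 115979955, plus strand).

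Mature sequences from RefSeq (GRCm38.p6) matched 4 of the 47 members, the 4 outside Sfmbt2. They are shown because these family members stood apart from most intronic ones in level, and they carry 4 different seeds, written here in capitals, 5′ to 3′.
miR-467f: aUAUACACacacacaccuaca
miR-467g: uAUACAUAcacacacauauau
miR-467h: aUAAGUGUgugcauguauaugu
miR-669n: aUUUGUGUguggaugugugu
Mir467f, Mir467g and Mir669n were listed at 0 in all 11 libraries, which allows up to 3 reads in each (one-sided 95% limit on a count of 0). Mir467h had 0 reads in MEF and on days 1 and 2, 2 on day 3, 1 on day 4, 0 on day 5, 1 on day 6, 1 on day 7, 2 on day 8, 0 in iPSC and 2 in ESC. None of the 4 members outside Sfmbt2 therefore rose above the level of a few reads, while 39 of the 43 within it were above 0 in every library. Among the RefSeq mature entries used here, the seed of miR-467h was shared with 1 other, miR-668-5p, and the other 3 seeds with none. Those entries held none of the 43 intronic members, so a seed shared with them could not be seen.

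The windows at both annotated start sites of Sfmbt2 are shown because 43 members lie within this gene and most moved together. RefSeq (GRCm38.p6) gives 250 bases before and 50 after each start, plus strand, 5′ to 3′, at chr2:10370201-10370500 and chr2:10372186-10372485, with the GC box GGGCGG in capitals.
Sfmbt2 first window: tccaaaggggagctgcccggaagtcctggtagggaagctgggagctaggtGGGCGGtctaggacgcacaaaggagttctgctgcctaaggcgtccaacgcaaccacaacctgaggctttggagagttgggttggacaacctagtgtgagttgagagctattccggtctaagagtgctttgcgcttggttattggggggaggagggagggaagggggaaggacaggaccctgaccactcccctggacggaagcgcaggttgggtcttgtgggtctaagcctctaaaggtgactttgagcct
Sfmbt2 second window: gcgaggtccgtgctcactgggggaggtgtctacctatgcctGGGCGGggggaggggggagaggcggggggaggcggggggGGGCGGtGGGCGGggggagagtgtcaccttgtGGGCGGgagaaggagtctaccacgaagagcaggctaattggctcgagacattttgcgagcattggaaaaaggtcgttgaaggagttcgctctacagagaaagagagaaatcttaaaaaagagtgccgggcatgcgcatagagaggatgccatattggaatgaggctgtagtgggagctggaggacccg
The first window held 9 CG dinucleotides and the second 16. On either strand, GGGCGG or its complement occurred 1 time in the first window and 4 times in the second, and in 35.9% of 32544 promoter windows. The octamer ATGCAAAT known for Oct4 occurred in neither (1.8% of promoter windows), nor did the E-box CACGTG known for Myc (7.2%) or the CACCC box known for Klf factors (57.7%). These matches describe the letters of the windows, and no binding was measured.

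Most intronic members were low in MEF and high from day 4 on. The miR-467 family summed to 18150.8 FPKM in MEF and then, from day 1 to day 8, to 27974.5, 65187.2, 100968, 223932, 257280, 429921, 207945 and 254671 FPKM. The sum was 98368 in iPSC and 391962 in ESC. The miR-669 family summed to 11290.4 FPKM in MEF, to 29387.9, 72492.7, 83352.7, 179750, 226569, 371939, 162031 and 150111 on days 1 to 8, to 110063 in iPSC and to 251127 in ESC. As deposited, each family was thus highest on day 6, with the ESC library next and MEF lowest. The day 6 sum was 23.7-fold that of MEF in miR-467 and 32.9-fold in miR-669. Behind these sums stood 14415 miR-467 reads on day 6 (95% exact Poisson interval 14180.6 to 14652.3) against 448 in MEF (407.5 to 491.5), and 17200 miR-669 reads (16943.9 to 17459.0) against 419 (379.8 to 461.1). The intervals cover counting error only. The families together made up 0.2975% of the table's FPKM on day 6, 0.2203% in ESC and 0.0694% in iPSC, against 0.0117% in MEF. Markers of other cell types moved over the same libraries. The 7 neural miRNAs in the table summed to 906695 FPKM on day 6 (7 of 7 higher than in MEF), 230793 on day 7, 141881 on day 8, 141805 in iPSC and 125015 in ESC, against 200543 in MEF. Of these 7, 2 were higher on day 8 than in MEF and 5 in ESC, although the sum in ESC was lower. The 5 epithelial miRNAs of the miR-200 family summed to 284811 FPKM on day 6 and 532484 on day 8 (5 of 5 higher than in MEF), against 52801 in MEF. The 5 muscle miRNAs summed to 331 FPKM on day 8 against 176879 in MEF, the 6 blood cell miRNAs to 115867 against 451321, and the endothelial Mir126 to 55912 against 44995. Their part in the course of both families was not tested.

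**Figure D1:**
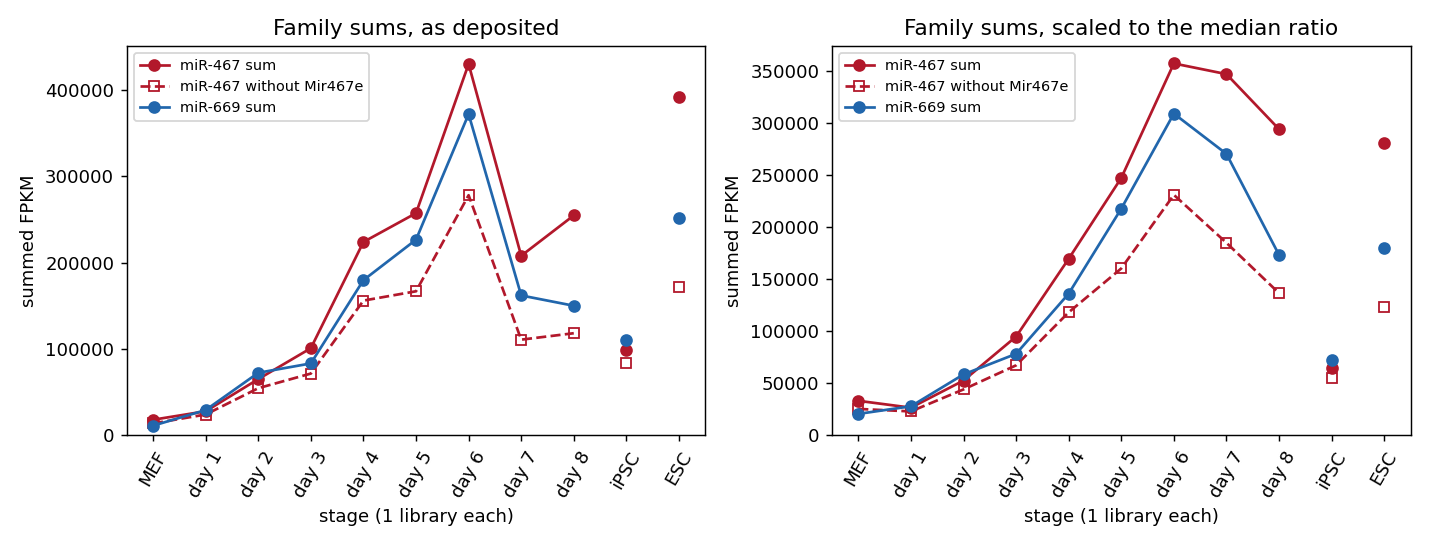
Summed FPKM of the miR-467 family (red circles), the same without Mir467e (open squares) and the miR-669 family (blue circles) at each stage, 1 library each, as deposited on the left and scaled to the median ratio of the libraries on the right. As deposited, both families are highest on day 6, and the iPSC point lies below ESC in both panels.

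The libraries differed in overall scale. The factor that brings the 787 transcripts above 0 in every library to a common median ratio was 0.546 for MEF, 0.599 for day 7 and 1.203 for day 6, where 1 means no change. After that scaling the miR-467 sum was 33267.4 in MEF, 357330 on day 6, 347085 on day 7, 294183 on day 8, 64993.1 in iPSC and 280995 in ESC. The miR-669 sum was 20693.4 in MEF, 309137 on day 6, 270449 on day 7, 173400 on day 8, 72720.1 in iPSC and 180031 in ESC. Day 6 remained the highest stage for both sums. The miR-467 sum was then lowest on day 1, at 26654.5, while the miR-669 sum stayed lowest in MEF. ESC was no longer next to day 6, and lay below days 7 and 8 in miR-467 and below days 5 and 7 in miR-669. The drop at day 7 was smaller than in the deposited values, with a median over the tested members of -0.20 on the log2 scale against -1.21 as deposited.

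Whether single members changed over the course was tested on log2(FPKM + 10), a scale that understates the change of low transcripts. The fit with limma covered all 1419 transcripts whose mean was 10 FPKM or more, which included 42 members: 14 of miR-467 and 28 of miR-669. A filter on the mean favours members that are high at some stage. Mir467h, Mir669j and the 3 members at 0 everywhere did not pass it. An F-test of day together with its square called 40 of the 42 at an adjusted p under 0.05 (Benjamini-Hochberg over all transcripts), where 32.6% of all transcripts tested were called. The 2 members not called were Mir669i and Mir669k. In each of the 9 fits that left out 1 library, 39 members were called; Mir669g was called in 3 of them.

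A linear rise, measured as the slope per day, was called for 13 of 14 miR-467 and 25 of 28 miR-669 members, against 12.5% of all transcripts tested. No member fell, also at an unadjusted p under 0.05, where 10.6% of all transcripts fell at the adjusted threshold. The median slope was 0.43 per day in miR-467 and 0.47 in miR-669, against 0.02 over all 1419 transcripts. Single slopes ran from 0.36 to 0.72 in miR-467 and from 0.13 to 0.61 in miR-669. The calls of a straight rise depended on single libraries. Without the MEF library 3 miR-467 and 2 miR-669 members were called, without day 1 10 and 3, and without day 6 12 and 13, while without day 8 it was 14 and 25. The median slopes without day 1 were 0.41 and 0.45, and without MEF 0.36 and 0.34. In all 9 such fits 5 members kept the call: Mir467b, Mir467a-8, Mir467e, Mir669o and Mir669h, of which the first 2 are named after their values were seen. Within days 3 to 8 no member was called by the slope or the F-test, and the median slopes were 0.16 and 0.13. The share of all transcripts called was not counted for the fits on fewer libraries. Their counts therefore cannot be read as particular to the members.

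**Figure D2:**
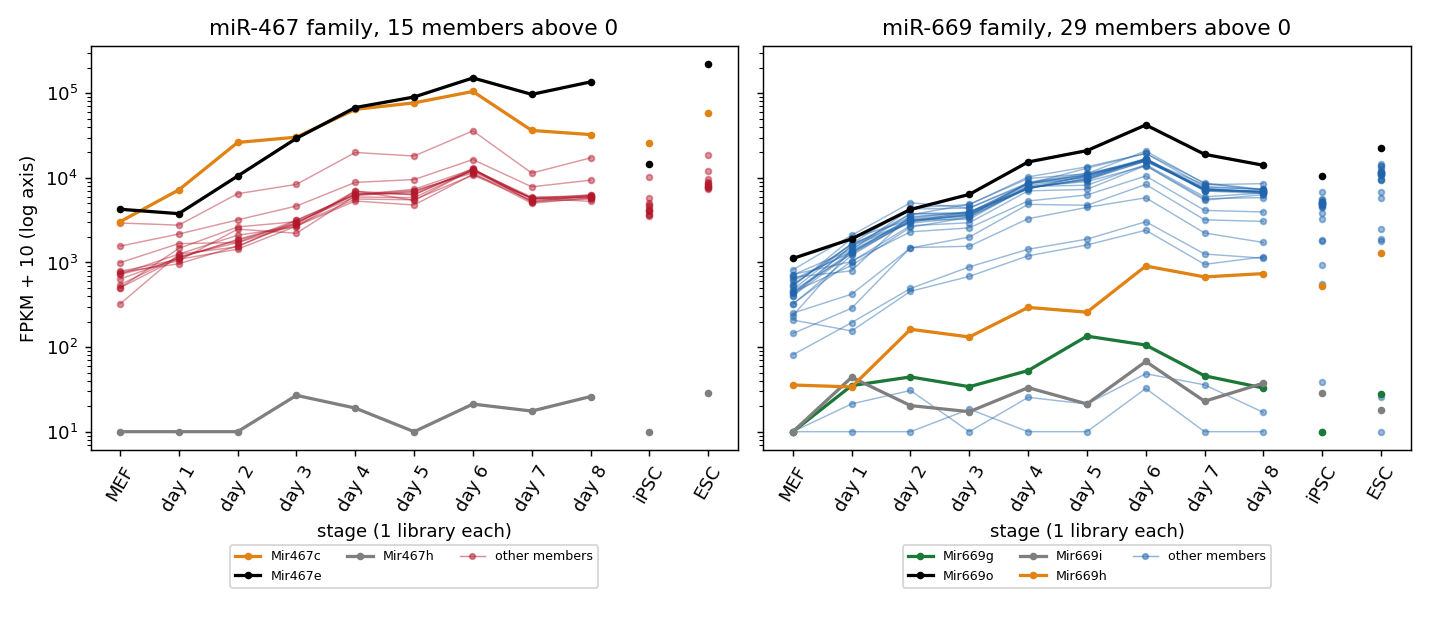
FPKM + 10 on a log axis for each of the 15 miR-467 (left) and 29 miR-669 members (right) above 0 in some library, by stage, 1 library each, with lines joining MEF to day 8 and single points for iPSC and ESC. Most members run in parallel up to day 6, while Mir467e has 0.898 of its day 6 value on day 8, Mir467h and Mir669i lie near the axis floor of 10, and Mir669g reaches 124.648 FPKM on day 5.

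The course was made of steps, which are descriptions of single libraries. From MEF to day 1, 38 of the 42 members were higher, beside 55.7% of all transcripts, with a median difference of 1.14 on the log2 scale as deposited and 0.25 after median-ratio scaling. At day 2 over day 1, 41 were higher (54.1% of all transcripts; median 1.24). At day 3 over day 2, the step at which the feeders first appear, 36 were higher (41.0% of all; median 0.24) and none was 4-fold higher or lower in FPKM + 10, where 7.33% and 9.02% of all transcripts were. At day 4 over day 3 all 42 were higher (58.3% of all; median 1.09). The next steps were smaller: 31 were higher at day 5 over day 4 (36.5% of all; median 0.24) and 41 at day 6 over day 5 (55.4% of all; median 0.77). At day 7 over day 6 none was higher (19.9% of all; median -1.21, beside -0.86 over all transcripts), and at day 8 over day 7 19 were (66.8% of all; median -0.06). With median-ratio scaling the medians of the steps onto days 2 to 8 were 1.0, 0.45, 0.78, 0.58, 0.56, -0.2 and -0.59. The larger fall then came at day 8 and not at day 7.

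The highest stage within the course was day 6 for 41 of the 42 tested members and day 5 for Mir669g. After median-ratio scaling it was day 6 for 35, day 7 for 6 and day 5 for 1. The lowest stage, counted as deposited only, was MEF for 38 members. Mir467d, Mir467e, Mir669f and Mir669h were lowest on day 1, and Mir669f is named after its values were seen. The shares of all transcripts that were highest or lowest at a given stage were not counted. All 42 members were at least 4-fold higher on day 6 than in MEF (35.7% of all transcripts), 3 of them from 0 in MEF, where the fold depends on the added 10 FPKM, and none was 4-fold lower (10.5% of all). On day 8 it was 39 (37.7% of all), and none was 4-fold lower (17.0% of all). Day 8 lay below day 6 in all 42, where 36.4% of all transcripts were higher on day 8. After median-ratio scaling 2 members turned, with Mir467e at 157464 on day 8 against 126246 on day 6 and Mir669h at 842 against 747. The median fold over the 42 was 28.1 on day 6 and 11.9 on day 8 over MEF as deposited, and 13.3 and 7.67 after that scaling.

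Mir467e was the highest member, as FPKM averaged over the libraries, and rose most steeply. It had 4250.32 FPKM in MEF and 3767.02, 10499.4, 29352.6, 67859.5, 90418.8, 151874, 97088.6 and 136364 over days 1 to 8, with 14552.2 in iPSC and 220186 in ESC. ESC was thus its highest library, MEF and day 1 its lowest, and iPSC lay between day 2 and day 3. Its slope was 0.72 ± 0.11 log2 units per day (SE; limma adjusted p = 0.00195), and it stayed under 0.05 in all 9 fits that left out 1 library. Mir467e differed from most members in the late course. Its day 8 value was 0.898 of its day 6 value, and Mir669h, the intronic member nearest to the end of the array, stood at 0.812. The 37 other members that were above 0 in every library stood between 0.295 and 0.57.

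Mir467c was the second most abundant miR-467 member in FPKM, with another course. It had 3017.16 FPKM in MEF, 7203.06, 26226.4, 30298.8, 64624.4, 77060, 105160, 36373.8 and 32499.1 over days 1 to 8, with 25779.7 in iPSC and 58250.5 in ESC. It was already 26226.4 on day 2, when Mir467e was at 10499.4, and on day 8 it was lower than on days 4 to 7. Its slope of 0.43 ± 0.15 missed the threshold (limma adjusted p = 0.059), while the F-test called its course (adjusted p = 0.00139), as it did in all 9 fits that left out 1 library.

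Ratios between members of one library do not depend on how that library is scaled. Mir467e over Mir467c was 1.41 in MEF, 0.523, 0.4, 0.969, 1.05, 1.17, 1.44, 2.67 and 4.2 over days 1 to 8, with 0.564 in iPSC and 3.78 in ESC. The ratio therefore rose at each day from day 2 to day 8, while iPSC stood near day 1 and ESC between day 7 and day 8. Mir467e over its neighbour Mir467d, whose hairpin starts at 10507630 against 10505721, was 1.45 in MEF, 1.37, 1.62, 3.5, 3.4, 4.99, 4.22, 8.53 and 7.92 over days 1 to 8, with 1.4 in iPSC and 11.9 in ESC. Mir467e made up 35.3% of the miR-467 sum on day 6, 53.5% on day 8, 14.8% in iPSC and 56.2% in ESC, against 23.4% in MEF. Without it the miR-467 sum was 278047 on day 6, 118307 on day 8, 83815.8 in iPSC and 171776 in ESC, against 13900.4 in MEF.

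With Mir467e left out, the families moved in step. The rest of miR-467 over miR-669 was 1.23 in MEF and then 0.824, 0.754, 0.859, 0.868, 0.736, 0.748, 0.684 and 0.788 over days 1 to 8, with 0.762 in iPSC and 0.684 in ESC. MEF stood apart, and the 10 other libraries lay between 0.684 and 0.868. Across the 11 libraries the median correlation of a member's log2(FPKM + 10) with that of the summed other members was 0.983, and 37 of the 42 had a value of at least 0.95. The 5 lower ones were Mir669i (0.446), Mir669k (0.55), Mir669g (0.608), Mir669h (0.907) and Mir467e (0.912). These correlations are descriptions: all members share the libraries and their scale, and many share sequence.

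Mir467d had 2922.02 FPKM in MEF, 2753.04, 6488.52, 8375.94, 19954, 18132, 35983.2, 11388.5 and 17221 over days 1 to 8, with 10363.8 in iPSC and 18525 in ESC. It rose by 0.37 ± 0.11 per day (limma adjusted p = 0.0323), a call kept in 4 of the 9 fits that left out 1 library. Day 1 lay just below MEF, and day 6 stood above all other libraries. The 14 intronic miR-467 members ranged from 10787 to 151874 FPKM on day 6 (median 12532), from 5270 to 136364 on day 8 (median 6127), from 3528 to 25780 in iPSC (median 4506) and from 7406 to 220186 in ESC (median 8601), against 313 to 4250 in MEF (median 738). Apart from Mir467c, Mir467d and Mir467e, all these members carry the names Mir467a and Mir467b and had slopes of 0.36 to 0.49.

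Among the miR-669 members, Mir669o had the highest FPKM. It had 1105.54 FPKM in MEF, 1891.72, 4225.67, 6373.06, 15419.5, 20999.3, 42271.5, 18987.9 and 14084.7 over days 1 to 8, with 10380.4 in iPSC and 22295.8 in ESC. It was highest on day 6 and lowest in MEF, and its slope was 0.55 ± 0.12 (limma adjusted p = 0.0114). Mir669l, near the start of the array, had 656.079 FPKM in MEF, 787.183, 3645.47, 4868.53, 9809.22, 11217.4, 20807.5, 8544.21 and 7179.49 over days 1 to 8, with 3820.35 in iPSC and 12559.1 in ESC. Its slope was 0.50 ± 0.13 (adjusted p = 0.0236), and it was called in 7 of the 9 fits that left out 1 library. Mir669c had 808.776 FPKM in MEF, 2088.9, 5076.87, 4414.86, 8754.18, 10792.7, 16227.1, 8286.91 and 8549.36 over days 1 to 8, with 6822.66 in iPSC and 13999 in ESC, with a slope of 0.40 ± 0.11 (adjusted p = 0.0251; called in 6 of 9 such fits).

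Mir669h was low and rose, with lower values than the day before on days 1, 3, 5 and 7. It had 2 reads in MEF and 2, 14, 16, 35, 21, 89, 98 and 101 reads over days 1 to 8, with 52 in iPSC and 154 in ESC. In FPKM these were 25.6216 in MEF, 23.8, 152.34, 121.683, 284.262, 248.633, 898.388, 665.086 and 729.225 over days 1 to 8, with 520.099 in iPSC and 1285.65 in ESC. MEF and day 1 were equal in reads, and days 6 to 8 all lay above every earlier stage. Its slope was 0.61 ± 0.09 (limma adjusted p = 0.00224), called in all 9 fits that left out 1 library. It made up 0.486% of the miR-669 sum on day 8, 0.473% in iPSC and 0.512% in ESC, against 0.227% in MEF and 0.081% on day 1.

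The 25 miR-669 members above 0 in every library ranged from 898 to 42272 FPKM on day 6 (median 15975), from 729 to 14085 on day 8 (median 6738), from 520 to 10380 in iPSC (median 4932) and from 1286 to 22296 in ESC (median 11191), against 25.6 to 1106 in MEF (median 437). Mir669e, called at an adjusted p of 0.0499 (limma slope 0.48 ± 0.15), was the call closest to the threshold and was kept in 1 of the 9 fits that left out 1 library. The 3 tested members without a called slope were at the level of single reads. Mir669g had 0 reads in MEF, 2, 3, 3, 5, 10, 9, 5 and 3 over days 1 to 8, with 0 in iPSC and 2 in ESC. Mir669i had at most 6 reads, on day 6, and Mir669k at most 4, on days 6 and 7, and Mir669j, which was not tested, had 1 read on day 3, 2 on day 6 and 0 elsewhere. The F-test called the course of Mir669g (limma adjusted p = 0.0364), a call kept in 3 of the 9 fits that left out 1 library. For Mir669i, Mir669j and Mir669k no change was detectable at this depth. These 4 and Mir669e are named after their values were seen.

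**Figure D3:**
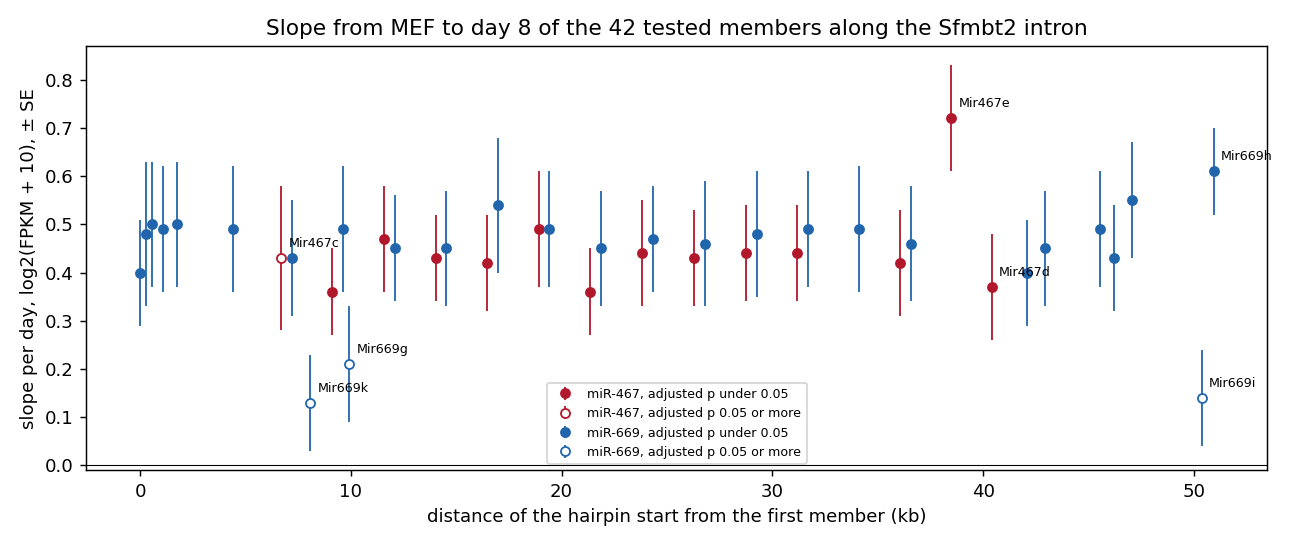
Slope per day from MEF to day 8 with its standard error (vertical axis, log2(FPKM + 10)) for the 42 tested members against the distance of the hairpin from the first member in kilobases, with filled points at an adjusted p under 0.05. Slopes lie mostly between 0.36 and 0.55 along the whole array, with Mir467e at 0.72 and Mir669h at 0.61 above and Mir669g, Mir669i and Mir669k below.

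No order of the slopes along the intron was seen, but identical copies, 20 of the 42 tested members, could not have shown one. Their reads cannot be told apart, so whether position matters was not settled. Over the 39 members above 0 in every library, Spearman's rho between the start of the hairpin and the slope was 0.04, given as a description, since members share libraries and sequence. Mir467e, with a slope of 0.72, lay next to Mir467d with 0.37. Mir669h, with 0.61, was neighbour to Mir669i, whose slope of 0.14 rests on at most 6 reads.

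Many members are exact copies, and their values are not separate measurements. Of the 42 tested members 20 fell into 4 groups with identical hairpins: 6 Mir467a genes (Mir467a-2, Mir467a-4, Mir467a-5, Mir467a-7, Mir467a-8 and Mir467a-9), 3 more (Mir467a-3, Mir467a-6 and Mir467a-10), 9 Mir669a genes (Mir669a-4 to Mir669a-12) and the pair Mir669p-1 and Mir669p-2. The 42 members held 26 distinct sequences, of which 22 had every copy called as rising and 24 every copy called by the F-test. Hairpins that differ may share reads too, so these 26 need not be separate measurements. The 6 Mir467a copies had 306 to 367 reads each on day 6 (mean 344.7), against 7 to 22 in MEF (mean 14.5). The 3 Mir467a copies of the other sequence had a mean of 345.3 on day 6 and 13.0 in MEF. The 9 Mir669a copies had 708 to 761 reads on day 6 (mean 736.9), 206 to 256 in iPSC (mean 227.2) and 590 to 645 in ESC (mean 617.4), against 8 to 22 in MEF (mean 16.4). Copies lay close together on day 6 and in both lines, and in MEF their few reads differed more in proportion.

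The spread between identical copies was about that of counting. Reads of identical hairpins cannot be told apart, and random placement on the copies would give such a spread whatever each locus made. The variance of reads over copies divided by their mean, which is 1 on average for random counts, averaged 1.22 over the 11 libraries in the 6 Mir467a copies and 0.85, 1.18 and 1.07 in the 9 Mir669a, 3 Mir467a and 2 Mir669p copies. It ranged from 0.2 to 1.84 in the group of 6 and from 0.47 to 1.53 in the group of 9, and more widely in the groups of 3 (0.06 to 4.68) and 2 (0.0 to 6.45). Slopes of identical copies still differed by this spread: 0.36 to 0.49 in the 6 Mir467a copies, 0.42 to 0.44 in the 3, 0.45 to 0.54 in the 9 Mir669a copies, and 0.45 and 0.48 in the Mir669p pair. Mir669a-6, the steepest of the 9 with 0.54 ± 0.14 (limma adjusted p = 0.0259), had 225.582 FPKM in MEF, the lowest of the 9 there. Differences of this size lay within the spread between identical copies, so slopes of single copies say nothing of their own locus. How reads that match several copies were shared is not given in the sources used here.

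**Figure D4:**
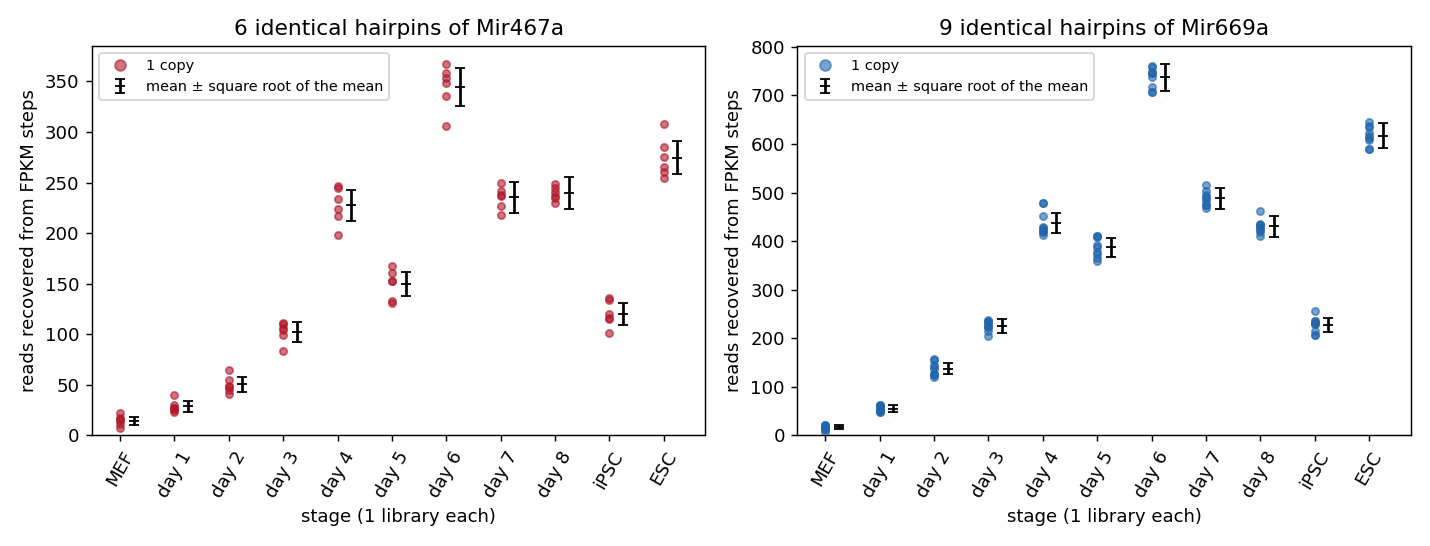
Reads recovered for each of 6 identical Mir467a hairpins (left) and 9 identical Mir669a hairpins (right) at each stage, 1 library each, with the mean of the copies and the square root of that mean as the bar, which is the spread that counting alone gives. Most copies lie within or close to the bar at every stage, with means of 344.7 and 736.9 reads on day 6, against 14.5 and 16.4 in MEF.

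The pluripotent lines were compared with MEF and with each other without a test, since each is 1 library. Of the 42 tested members 36 were at least 4-fold higher in both lines than in MEF, where 29.7% of all transcripts were, and none was 4-fold lower (7.75% of all). The exceptions were Mir467a-1, Mir467d, Mir467e and the low Mir669g, Mir669i and Mir669k. After median-ratio scaling 9 members passed, so this count depends on how the libraries are scaled. The share of all transcripts that passed after scaling was not counted, so these 9 cannot be set against it. The median fold over MEF was 7.9 in iPSC and 19.3 in ESC as deposited, and 2.93 and 7.57 after that scaling. On the log2 scale these medians were 2.98 and 4.27 as deposited and 1.55 and 2.92 after scaling.

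iPSC lay below ESC in nearly every member. Of the 42, 2 were higher in iPSC than in ESC, where 55.5% of all transcripts were, and these were the low Mir669i (2 reads in iPSC and 1 in ESC) and Mir669k (3 and 2). The median difference was -1.11 on the log2 scale as deposited and -1.22 after scaling, beside 0.15 over all transcripts as deposited. Mir467e alone was at least 4-fold lower in iPSC than in ESC, beside 7.12% of all transcripts, and no member was 4-fold higher, beside 10.9% of all. Mir467e had 478 reads in iPSC (95% exact Poisson interval 436.1 to 522.8) against 8665 in ESC (8483.5 to 8849.4), and its level in iPSC was 0.0661 of that in ESC. The other members above 0 in every library stood between 0.285 (Mir669d) and 0.72 (Mir669e), with Mir669h at 0.405, and Mir669d is named after its values were seen. The miR-467 sum was 5.42-fold that of MEF in iPSC and 21.6-fold in ESC, and the miR-669 sum 9.75-fold and 22.2-fold. Set against day 8 as deposited, 2 of the 42 members were higher in iPSC (58.9% of all transcripts) and 40 in ESC (59.3% of all). The median difference from day 8 was -0.45 in iPSC and 0.67 in ESC (log2), but -1.25 and -0.01 after median-ratio scaling. The higher values in ESC than on day 8 thus depend on how the libraries are scaled. As deposited, iPSC fell among the early days of the course in both sums, next to day 3 in miR-467 and between day 3 and day 4 in miR-669. After scaling it lay between day 2 and day 3 in both sums. Beside this, the fibroblast miRNAs without Mir143 summed to 2071027 FPKM in iPSC and 8983030 in ESC, Mir143 was at 3927200 and 17316200, and the epithelial miR-200 family summed to 1537120 and 2838384. Their part in the difference, and that of the unclear ESC genotype, was not tested.

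**Figure D5:**
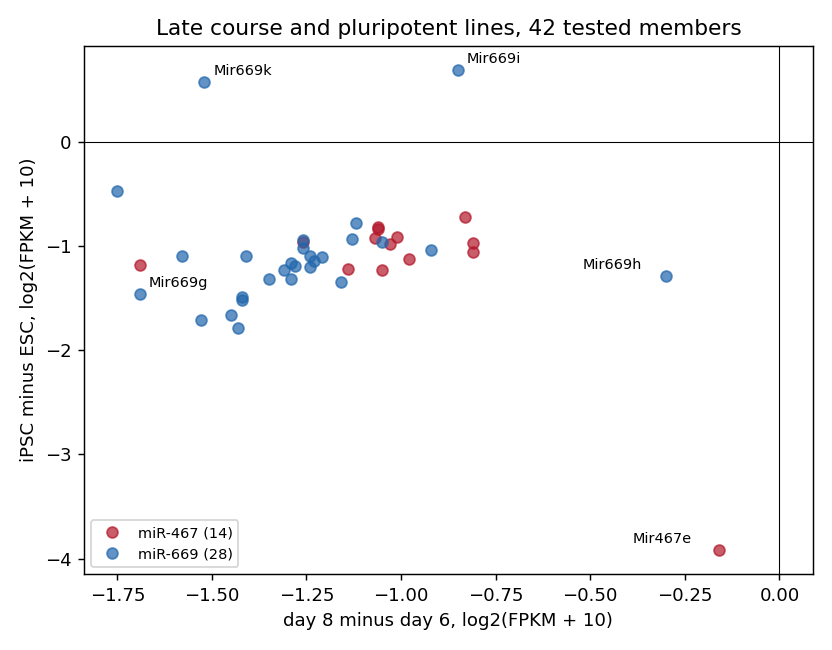
Each point is 1 of the 42 tested members, with the difference of day 8 minus day 6 on the horizontal axis and of iPSC minus ESC on the vertical axis, both in log2(FPKM + 10), miR-467 in red and miR-669 in blue. Mir467e stands alone at -3.92 for iPSC minus ESC and near 0 for day 8 minus day 6, and Mir669h has 0.812 of its day 6 value on day 8, with iPSC at 0.405 of ESC.

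Genes named miR-466 and miR-297, families also known from the Sfmbt2 intron, were counted for comparison. Of 26 miR-466 genes 24 were tested, 2 rose and none fell by the slope, beside 12.5% of all transcripts that rose, 24 were called by the F-test, beside 32.6% of all, and the median slope was 0.41. The slope count of miR-466 was thus not above the share over all transcripts. At an unadjusted p under 0.05 (limma slope), 19 of the 24 rose, beside 287 of all 1419 transcripts. The median SE of the slope was 0.17 in miR-466, against 0.1 in miR-467 and 0.12 in miR-669. Of 5 miR-297 genes all 5 were tested, 4 rose, none fell, 5 were called by the F-test, and the median slope was 0.41. At day 8 over day 6 the median difference was -2.41 in miR-466 and -1.53 in miR-297, beside -1.04 in miR-467 and -1.29 in miR-669 (log2). None of these differences between families was tested.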

How the data were processed

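FPKM per small RNA gene were deposited by the authors, 1 column for each of 11 libraries, with 0 columns of other samples. Per the submitters' processing notes, CASAVA 1.8.2, Bowtie2 2, Cufflinks 2.2.1 and build mm10 were used, in roles not given in the sources used here; libraries came from the TruSeq small RNA kit with gel size selection, per the labels' protocols. The members, lists and tests were chosen with earlier results of these data known.

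Values were used as log2(FPKM + 10) for the 1419 transcripts with a mean of at least 10 FPKM, 901 of them miRNAs. limma 3.58.1 in R 4.3.3 fitted the slope per day (two-sided, MEF at day 0) and day with day squared, with Benjamini-Hochberg adjustment over all transcripts and a threshold of 0.05 (7 residual and 2.53 prior degrees of freedom). The fits were tested on simulated data. Stages were otherwise compared as folds of FPKM + 10, a fold of 4 being counted.

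Reads were recovered as whole multiples of the FPKM of 1 read, which depends on hairpin length under an assumed fragment length of 200 ± 80 nt. It was 12.2 FPKM in MEF for a hairpin of 127 nt and 64.6 for 73 nt, so levels of hairpins of different length compare less safely than libraries. All 465 positive member values were whole within 0.1 read, 166 of which, of 300 reads or more, had not set the step. No count test was run, since the reads rest on this model. Table IDs matched GENCODE vM21 for 38 members; Mir669a-4 to Mir669a-12 matched by name only. Members named with values were the 8 of highest mean FPKM in each family, the 5 steepest called slopes and those outside Sfmbt2; others are marked. Sets of alternatives covered the added FPKM, the filter, scaling, the prior variance, zeros and left-out libraries.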

Additional observations from a re-analysis of the deposited data

How the results depend on the processing

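No paired analysis was possible because each stage has 1 library. The counts of rising members were 13 in miR-467 and 25 in miR-669. They were 0 and 0 with days 3 to 8 only, and leaving out 1 library gave 3 to 14 and 2 to 25, lowest without MEF, with 3 miR-669 members without day 1 and 13 without day 6. The median slopes were 0.43 and 0.47. They were 0.16 and 0.13 with days 3 to 8 only, 0.69 and 0.79 with days 7 and 8 left out, and 0.36 to 0.54 and 0.34 to 0.61 with 1 library left out. The F-test called 40 members, 0 with days 3 to 8 only and 38 to 40 otherwise. Fewer libraries and a shorter span enter the fit of days 3 to 8. With 1 FPKM added in place of 10, 1 member was at least 4-fold lower on day 3 than on day 2 (0 as reported) and 2 in iPSC than in ESC (1 as reported). With median-ratio scaling 9 members were at least 4-fold higher in both pluripotent lines than in MEF (36 as reported). That scaling divides FPKM by 0.546 in MEF, 1.514 in iPSC and 1.395 in ESC, which lowers the folds of both lines over MEF. The share of all transcripts called was not counted for any of these alternatives. The slope of Mir467c was -0.04 with days 3 to 8 only. Of 340 alternative fits of the 17 called members named for level or slope, 288 kept the call and 52 lost it. Of 20 fits of Mir467c, not called as reported, 13 left it uncalled, 6 called it and 1 changed its direction. Depth limits Mir669g, Mir669i, Mir669j, Mir669k and Mir467h, which had at most 10 reads in a library.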
